A study of Mus musculus with 41 samples.

Results

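The 10 Polycomb repressive complex genes, Ezh1, Ezh2, Eed, Suz12, Jarid2, Mtf2, Phf19, Ring1, Rnf2 and Cbx7, were followed through 13 RNA-seq libraries of mouse androgenetic haploid embryonic stem cells (AG-haESCs). They were chosen by symbol as known subunits and are 10 of the 24028 distinct gene symbols in the tables. All 10 were found in every library, each on a single row. AG-haESCs are derived from embryos that carry only a sperm genome, and the study asked how culture medium affects the stability of their paternal imprints. Each library gives FPKM, the number of sequenced fragments of a gene scaled to its transcript length and to the depth of the library. FPKM values are set side by side here, but comparisons between libraries also depended on further scaling, as given at the end.

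All lines were labelled C57BL/6 and all cells were grown with LIF and the Gsk3β inhibitor CHIR99021. The 2i/L medium held serum and the Mek inhibitor PD0325901, whereas SF/a2i/L was serum-free and held the Src inhibitor CGP77675 in its place. Lines labelled TSa2i/L were started in a2i/L, which has the same 2 inhibitors but contains serum, and were later moved to SF/a2i/L and kept there. Wild-type cells in 2i/L were represented by the single line 2i-14 at p18, p39 and p50 (p, passage). Wild-type cells in TSa2i/L were represented by TSa2i-14 at p22, p47 and p54, a line that carries an actin-EGFP transgene, and by TSa2i-C57 at p9 and p58. In the line 2i-O48 both the IG-DMR and the H19-DMR are deleted (DMR, differentially methylated region), and 2i-O48-TKO additionally lacks the gene H19. Each of these lines gave 1 library in 2i/L. Finally, both deleted lines and 2i-14 were each sequenced once after 5 passages in SF/a2i/L and are called switched cultures here. The passages of a line are cultures of the same cells at different times and no parallel cultures were labelled, so the p-values measure the spread between these libraries only. Since 2i/L was represented by 1 wild-type line and TSa2i/L by others, medium, serum and line cannot be told apart in that comparison.

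Polycomb group proteins silence developmental genes through marks on histones. Polycomb repressive complex 2 (PRC2) methylates lysine 27 of histone H3 (H3K27me3) and is built on a core of Eed, Suz12 and either of the alternative methyltransferases Ezh2 and Ezh1. Accessory subunits define its subtypes: Mtf2 and Phf19 are Polycomb-like proteins that bind CpG-rich DNA, and Jarid2 marks the other subtype. In PRC1, the E3 ligases Rnf2 (RING1B) and Ring1 (RING1A) ubiquitinate histone H2A, and Cbx7 reads H3K27me3 through its chromodomain. In mouse ESCs these complexes keep lineage genes such as the Hox clusters at low levels.

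The promoters of 4 genes are shown because the results turn on their genes: Ezh2 was low in 1 library, and Mtf2 and Phf19 between media and Eed between passages had groups that did not overlap, although none of these passed its test. The sequences are from RefSeq (GRCm38.p6), from 250 bases before to 50 bases after the start site, and each matched the genome of the files' build, NCBIM37 (mm9), at 1 place. On that build they lie at chr6:47544980-47545279 (Ezh2), chr5:108494443-108494742 (Mtf2, the upstream of 2 start sites), chr2:34769447-34769746 (Phf19) and chr7:97129437-97129736 (Eed), the Mtf2 promoter on the plus strand and the other 3 on the minus strand. Capitals mark matches on either strand to the E2F words TTTCCCGC or TTTGGCGC, to CCAAT and to the GC box GGGCGG, and adjacent or overlapping matches run together.
Ezh2: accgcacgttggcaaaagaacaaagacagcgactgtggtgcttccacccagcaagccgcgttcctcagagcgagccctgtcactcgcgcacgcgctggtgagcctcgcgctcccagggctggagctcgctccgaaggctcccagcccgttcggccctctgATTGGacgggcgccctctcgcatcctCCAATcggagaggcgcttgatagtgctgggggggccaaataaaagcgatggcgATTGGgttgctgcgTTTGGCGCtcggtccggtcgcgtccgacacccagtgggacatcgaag
Mtf2: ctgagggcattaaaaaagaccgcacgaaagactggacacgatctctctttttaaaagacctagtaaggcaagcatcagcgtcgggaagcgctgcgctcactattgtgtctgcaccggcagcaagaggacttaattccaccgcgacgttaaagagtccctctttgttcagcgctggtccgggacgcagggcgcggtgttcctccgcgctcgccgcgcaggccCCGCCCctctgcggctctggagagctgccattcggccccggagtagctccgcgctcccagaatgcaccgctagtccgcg
Phf19: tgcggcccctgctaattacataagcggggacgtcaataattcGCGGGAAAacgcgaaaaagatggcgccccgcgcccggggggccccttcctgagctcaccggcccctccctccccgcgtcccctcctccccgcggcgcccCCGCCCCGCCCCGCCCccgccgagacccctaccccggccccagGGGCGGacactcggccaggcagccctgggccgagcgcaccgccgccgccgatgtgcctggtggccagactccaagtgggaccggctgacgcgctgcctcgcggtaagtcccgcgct
Eed: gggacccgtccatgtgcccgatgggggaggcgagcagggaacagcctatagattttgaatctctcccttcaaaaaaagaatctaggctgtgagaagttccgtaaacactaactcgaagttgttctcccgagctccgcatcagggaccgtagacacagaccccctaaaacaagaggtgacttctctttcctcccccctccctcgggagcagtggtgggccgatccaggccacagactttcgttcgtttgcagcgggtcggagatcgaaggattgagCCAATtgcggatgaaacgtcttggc
The Ezh2 promoter held 1 TTTGGCGC and 3 CCAAT matches, whereas that of Phf19 held 1 TTTCCCGC and 4 GC boxes. The Mtf2 promoter held 1 GC box and that of Eed 1 CCAAT match. Among all 32851 promoters of the RefSeq table, 1.56% held either E2F word, 37.4% held CCAAT and 35.7% held a GC box, so the last 2 are common. Of the 12 promoters listed for the 10 genes, those of Ezh2, Phf19 and Suz12 held an E2F word. The 4 sequences above held 31 (Ezh2), 30 (Mtf2), 38 (Phf19) and 17 (Eed) CpGs, beside a median of 7 over the table, whereas the second Mtf2 promoter, not shown, held 2. The matches describe letters in these windows and not binding.

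The transcription units were placed with GENCODE vM1 on NCBIM37, and all 10 are protein-coding. Among the PRC2 core genes, Ezh2 (ENSMUSG00000029687.9) lies at chr6:47480273-47545340 (minus strand), Ezh1 at chr11:101052429-101087777 (minus strand), Eed at chr7:97103166-97129493 (minus strand) and Suz12 at chr11:79806608-79847625 (plus strand). The accessory genes Jarid2, Mtf2 and Phf19 lie at chr13:44824843-45017012 (plus strand), chr5:108494693-108538023 (plus strand) and chr2:34749277-34769546 (minus strand). The PRC1 genes Rnf2, Ring1 and Cbx7 lie at chr1:153316536-153347953 (minus strand), chr17:34157737-34161625 (minus strand) and chr15:79746237-79801549 (minus strand). Exons of 3 of them share bases with a gene on the opposite strand: Mtf2 shares 395 bases with Tmed5, and Ezh2 and Suz12 share 174 and 178 bases with the lincRNAs Gm17629 and Gm16706. Whether strand was used in quantification is not given in the sources used here, so reads of such stretches cannot be assigned. Tmed5 was listed at 12.2 to 21.6 FPKM over the 13 libraries.

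The libraries were close in most global measures. Summed FPKM ran from 651115 to 871848 in 12 libraries and was 2146932 in switched 2i-14, where microRNA genes took 67.2%. These genes took 23.2% in 2i-14 p18, which also stood apart, and at most 1.06% (2i-14 p39) in the rest. Without microRNA genes summed FPKM ran from 651106 to 735364 in all 13. Steps of single fragments among lowly listed genes implied 12700000 to 20000000 fragments per library, an estimate from the values. Each of 7 ESC markers was detected everywhere, with Pou5f1 (Oct4) at 59.6 to 168 FPKM and Nanog at 110 to 467 FPKM. RNA of feeder fibroblasts was higher in TSa2i-14 p54, 2i-14 p39 and TSa2i-C57 p58, with means over 15 markers of 2.67, 2.29 and 1.66 on the log2(FPKM + 1) scale, and was 0.137 to 0.661 in the other 10. Of these markers 0 or 1 was listed at 0 in the 3 high libraries, and summed levels there were 70.4 to 587 FPKM against 2.06 to 20.5 FPKM elsewhere. H19 was listed at 0.125 FPKM or less in 10 libraries, those of the deleted lines included, so its deletion could not be checked from RNA. In bulk RNA, fewer cells of a type and less RNA per cell cannot be told apart.

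The 10 genes differed widely in level. Eed, the H3K27me3-binding scaffold of PRC2, was highest with a median of 187 FPKM over the 13 libraries (range 124 to 294). It was followed by Mtf2 at 77.2 FPKM (60.1 to 137), Rnf2 at 56.1 FPKM (36 to 68.7), Suz12 at 41.5 FPKM (28.1 to 69.8) and Ezh2 at 35.8 FPKM (5.31 to 42.9). Jarid2 had a median of 15.1 FPKM (7.26 to 18.8) and Cbx7 a median of 7.51 FPKM (6.32 to 10.9). Ezh1 at 1.99 FPKM (0.92 to 3.03), Phf19 at 1.02 FPKM (0.118 to 1.8) and Ring1 at 0.233 FPKM (0.14 to 0.545) made up the low end. Only Cbx7 and Ezh1 were neighbours whose ranges did not overlap; all other neighbours overlapped, although Mtf2 exceeded Rnf2 in 13 of 13 libraries and Eed exceeded Mtf2 in 12. Rnf2 exceeded Suz12 in 8 of 13, so these neighbours had no stable order.

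**Figure D1:**
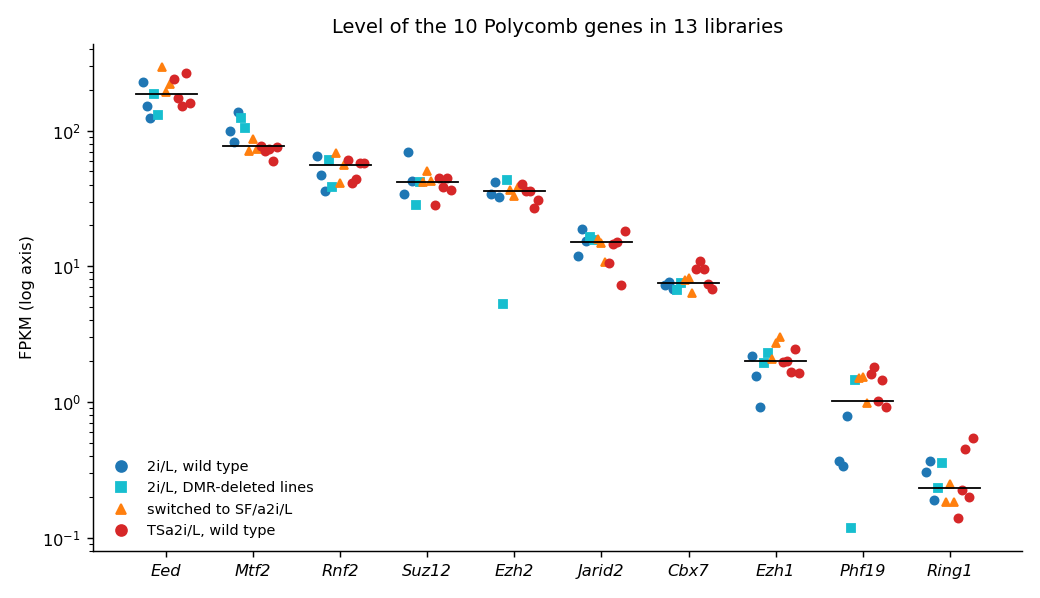
Level of each gene in the 13 libraries, in FPKM on a log axis, ordered by median (black lines); colour and shape give medium and genotype. Medians fall from 187 FPKM (Eed) to 0.233 FPKM (Ring1), and 1 2i/L library of a DMR-deleted line stands apart at 5.31 FPKM for Ezh2.

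In each pair of paralogs 1 gene dominated. The ratio of Rnf2 to Ring1 in FPKM was 98.7 to 435 over the 13 libraries, and Ring1 stayed below 1 FPKM in all of them and was therefore tested only in the fits with no filter on low values, where it was not called. With the transcript length and the implied depth, its levels stand for about 4.17 to 16.7 fragments per library. The ratio of Ezh2 to Ezh1 was 10.9 to 35 in 12 libraries and 2.75 in 2i-O48. The ratio of Mtf2 to Phf19 in wild-type cells was 275, 247 and 174 in 2i-14 (p18, p39, p50) and 39.5 to 83.1 in the 5 TSa2i/L libraries. This gap follows from the levels of the 2 genes between media, given below, and is no further result. In 2i/L, 2i-O48 stood at 1042 and its TKO derivative at 72.8, and the ratio was 47.3 to 74.8 in the 3 switched cultures. The value of 1042 rests on about 8.8 fragments of Phf19.

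The first comparison asked whether wild-type cells in TSa2i/L and in 2i/L differed in these genes. Mtf2 was lower and Phf19 higher in every TSa2i/L library than in every 2i/L library, but 0 of the 9 tested genes passed an adjusted p of 0.05 (limma on log2(FPKM + 1), Benjamini-Hochberg over 10387 genes), and the other 7 overlapped between media. At that threshold 7.57% of all tested genes were called, 594 higher and 192 lower in TSa2i/L (75.6% higher, or 56.2% with each library centred on its median), and 16.5% had groups that did not overlap.

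Mtf2, the Polycomb-like subunit with the higher level, was at 100, 82.6 and 137 FPKM in 2i-14 (p18, p39, p50). In TSa2i/L it was at 77.2, 71.3 and 73.1 FPKM in TSa2i-14 (p22, p47, p54), and at 60.1 and 75.9 FPKM in TSa2i-C57 p9 and p58. The 2i/L libraries were all higher and also more spread. The means were 71.5 ± 6.81 FPKM (SD, n = 5) in TSa2i/L and 106 ± 27.6 FPKM (SD, n = 3) in 2i/L, a ratio of 0.672. The log2 change was -0.54 (SE 0.18, 95% interval -0.93 to -0.15, limma adjusted p = 0.0898). It was -0.35 (adjusted p = 0.296) without 2i-14 p50, the highest library. With the deleted lines added to 2i/L, 2i-O48 at 123 FPKM and 2i-O48-TKO at 105 FPKM, it was -0.59 and passed the limma test (adjusted p = 0.019), as did 12.5% of all genes in that fit, while that for all 19 alternatives ran from 0.019 to 0.296.

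Phf19, its lowly expressed paralog, showed the opposite order. It was at 0.364, 0.335 and 0.786 FPKM in 2i-14 (p18, p39, p50), about 18.5 to 56.3 fragments. In TSa2i/L it was at 1.62, 1.8 and 1.02 FPKM in TSa2i-14 (p22, p47, p54), and at 1.44 and 0.914 FPKM in TSa2i-C57 p9 and p58. The highest 2i/L library and the lowest TSa2i/L library were thus close, and neither group entered the range of the other. The means were 1.36 ± 0.383 FPKM (SD, n = 5) and 0.495 ± 0.253 FPKM (SD, n = 3), a 2.75-fold difference. Phf19 passed the filter of at least 1 FPKM in 3 libraries only through TSa2i/L, where it was high, so its test under that filter is not read. Without the filter the change was 0.66 (SE 0.17, limma adjusted p = 0.105) on the log2(FPKM + 1) scale, which understates changes of low genes, and did not pass. The deleted lines in 2i/L lay on either side, 2i-O48 at 0.118 FPKM and 2i-O48-TKO at 1.44 FPKM, the latter inside the TSa2i/L range.

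**Figure D2:**
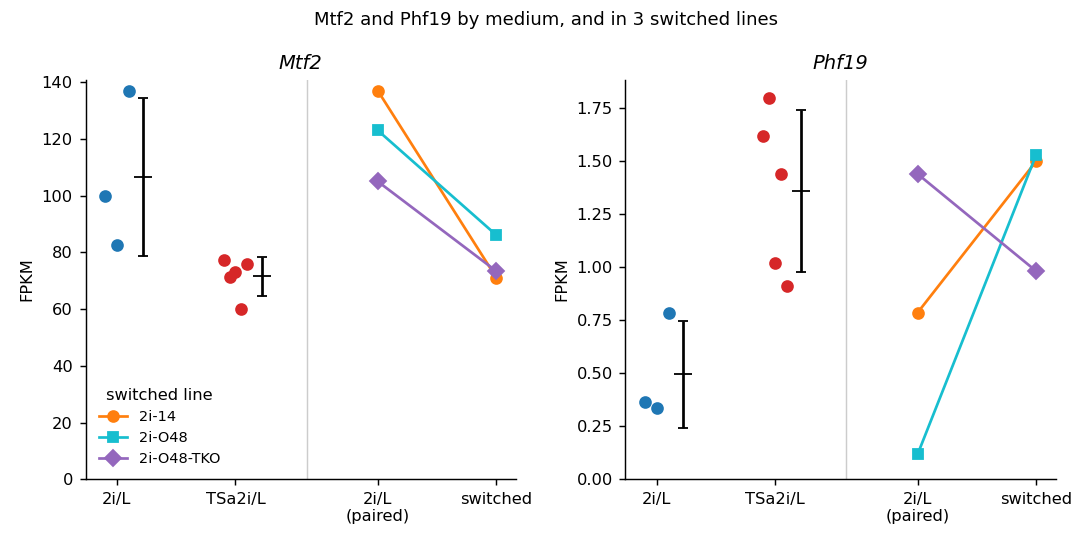
Mtf2 and Phf19 in FPKM. Left of each panel, single wild-type libraries in 2i/L (3) and TSa2i/L (5) with mean and SD; right, 3 lines in 2i/L joined to the same line after the switch. Mtf2 is lower after the switch in each of the 3 lines, whereas Phf19 is lower in 2i-O48-TKO (1.44 and 0.982 FPKM) and higher in the other 2.

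The PRC2 core showed no difference between media beyond its spread. Eed was at 199 ± 51 FPKM (SD, n = 5) in TSa2i/L and 168 ± 54.8 FPKM (SD, n = 3) in 2i/L, Suz12 at 38.5 ± 6.83 and 48.7 ± 18.8 FPKM, and Ezh2 at 34.1 ± 5.28 and 36.2 ± 5.24 FPKM. The 95% interval of the log2 change was -0.26 to 0.77 for Eed, -0.81 to 0.24 for Suz12 and -0.47 to 0.30 for Ezh2, so differences of those sizes remain possible. Ezh1 was at 1.94 ± 0.332 and 1.55 ± 0.629 FPKM, with an interval of -0.20 to 0.66. Jarid2 was at 13.1 ± 4.26 and 15.3 ± 3.43 FPKM, with an interval of -0.84 to 0.35.

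In PRC1, Rnf2 was at 52.3 ± 9.06 FPKM (SD, n = 5) in TSa2i/L and 49.3 ± 14.5 FPKM (SD, n = 3) in 2i/L, and Ring1 at 0.311 ± 0.175 and 0.286 ± 0.0897 FPKM. Cbx7, the main Cbx reader of PRC1 in ESCs, was at 8.81 ± 1.72 and 7.21 ± 0.429 FPKM (log2 change 0.24, 95% interval -0.18 to 0.66). Its TSa2i/L libraries divided by line, as 9.51, 10.9 and 9.5 FPKM in TSa2i-14 stood above all 10 other libraries (6.32 to 8.24 FPKM), whereas TSa2i-C57 was at 7.36 and 6.76 FPKM. With 3 and 2 libraries this difference between lines was not tested.

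**Figure D3:**
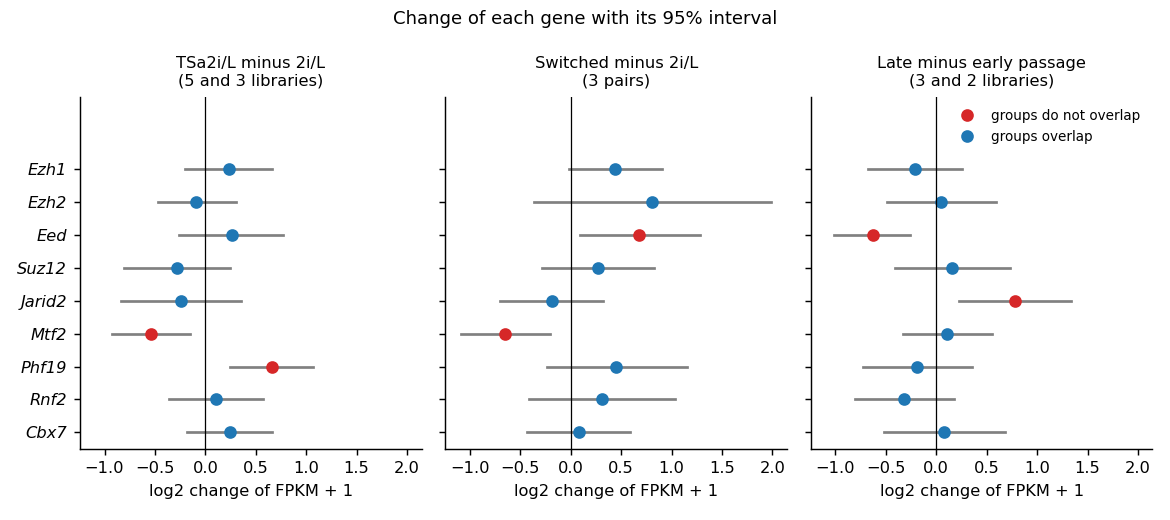
Log2 change of FPKM + 1 for the 9 tested genes in 3 comparisons, as points with 95% intervals from limma. Red points mark genes whose groups do not overlap: Mtf2 and Phf19 between media, Mtf2 and Eed after the switch, and Eed and Jarid2 between passages; the interval of Phf19 between media is not read, since it passed the filter only through TSa2i/L.

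The second comparison asked what happened to the same lines after 5 passages in SF/a2i/L. Against the chosen controls, Mtf2 was lower and Eed and Ezh1 were higher in the switched culture of all 3 lines, but 0 of the 9 tested genes passed the adjusted threshold (limma with the line as a block), where 6.89% of 9759 genes were called, 217 higher and 455 lower (32.3% higher, or 55.1% with median centring). Groups that did not overlap were seen for Mtf2 and Eed, beside 31.3% of all tested genes. By its name, 2i-O48-TKO was made from 2i-O48, so the 3 lines do not have 3 separate origins. The fit did not take this into account. The 2i/L control of 2i-14 was its p50 library, which this comparison shares with the first. No passage number was labelled for the deleted lines or the switched cultures. Passage and switch therefore cannot be told apart in these pairs. The feeder marker mean also rose, from 0.168 to 0.392 in 2i-14, 0.207 to 0.485 in 2i-O48 and 0.180 to 0.403 in 2i-O48-TKO. Of the 7 ESC markers, 1 passed the test and was lower. Whether the Polycomb genes moved with these markers was not tested.

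Mtf2 went from 137 to 71.1 FPKM in 2i-14, from 123 to 86.1 FPKM in 2i-O48 and from 105 to 73.4 FPKM in 2i-O48-TKO. Every line was lower after the switch, and 2 of the 3 switched cultures lay within the 60.1 to 77.2 FPKM of TSa2i/L. The log2 change was -0.65 (SE 0.18, 95% interval -1.09 to -0.21, limma adjusted p = 0.086). Against the earlier passages of 2i-14, switched 2i-14 was lower by -0.49 (p18) and -0.21 (p39) on the log2 scale, so the size in this line depended on the passage used as control.

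Eed went from 124 to 294 FPKM in 2i-14 and from 131 to 222 FPKM in 2i-O48-TKO, but only from 187 to 193 FPKM in 2i-O48. The log2 change was 0.68 (SE 0.25, 95% interval 0.09 to 1.28, limma adjusted p = 0.149). Rnf2 was higher in the same 2 lines, from 36 to 68.7 FPKM in 2i-14 and from 38.1 to 56.1 FPKM in 2i-O48-TKO, and was at 60.7 and 41.4 FPKM in 2i-O48. The log2 change of Rnf2 was 0.31 (SE 0.30, limma adjusted p = 0.556), and 0.00 (adjusted p = 0.996) without the line 2i-14. Without the line 2i-O48, 3 genes passed the limma test: Eed (log2 change 1.00, adjusted p = 0.011), Mtf2 (-0.72, adjusted p = 0.0411) and Rnf2 (0.73, adjusted p = 0.0436). That fit rests on 2 pairs, and 1461 of 9888 genes (14.8%) passed in it against 672 with all 3 lines. Without the line 2i-14 neither Eed (0.40, limma adjusted p = 0.345) nor Mtf2 (-0.51, adjusted p = 0.219) passed. Without 2i-O48-TKO they were at 0.64 (adjusted p = 0.492) and -0.72 (adjusted p = 0.401). Here too the control of 2i-14 matters: in 2i-14 p18 Eed was at 229 FPKM, which leaves a log2 change of 0.36 in this line, and Rnf2 was at 64.7 FPKM, which leaves 0.09. In switched 2i-14 and 2i-14 p18 microRNA genes took 67.2% and 23.2% of summed FPKM. Any bearing of this on Eed and Rnf2 was not tested.

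Ezh1 went from 0.92 to 2.06 FPKM in 2i-14, from 1.93 to 2.74 FPKM in 2i-O48 and from 2.28 to 3.03 FPKM in 2i-O48-TKO (log2 change 0.44, SE 0.19, limma adjusted p = 0.205). Against 2i-14 p18, at 2.18 FPKM, switched 2i-14 was not higher (-0.06). Phf19 went from 0.786 to 1.5 FPKM and from 0.118 to 1.53 FPKM in 2i-14 and 2i-O48, and from 1.44 to 0.982 FPKM in 2i-O48-TKO (0.45, SE 0.29, adjusted p = 0.367). Its change was 0.09 without the line 2i-O48, 0.83 without 2i-O48-TKO and 1.08 with a pseudocount of 0.1. For the remaining genes the log2 changes were 0.27 for Suz12, -0.19 for Jarid2 and 0.08 for Cbx7, with limma adjusted p-values of 0.502 to 0.846. The Suz12 change was 0.00 without the line 2i-O48. That of Jarid2 was -0.32 without 2i-14 and -0.04 without 2i-O48-TKO.

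Ezh2, the main H3K27 methyltransferase of ESCs, changed unequally between lines. It went from 5.31 to 33.1 FPKM in 2i-O48, from 32.2 to 36.3 FPKM in 2i-14 and from 42.9 to 38.1 FPKM in 2i-O48-TKO. The log2 change of 0.81 (SE 0.49, 95% interval -0.37 to 1.99, limma adjusted p = 0.345) was 0.00 without 2i-O48. The 2i-O48 library in 2i/L was 6.77-fold below the median of the other 12 libraries (36 FPKM) and 5.06-fold below the lowest of them (26.9 FPKM, TSa2i-C57 p9). Its 5.31 FPKM stands for about 281 fragments by the estimated depth, which are copies of amplified cDNA and not independent molecules. Of 6168 genes with a median of at least 5 FPKM, 4 were in that library more than 4-fold below the next lowest library: Ezh2, Ndufs5, Ptprtos and Tspo2, named after their values were seen. Other libraries had 0 to 6 such genes. Ezh1 was at 1.93 FPKM in the same library, within the 0.92 to 3.03 FPKM of the others, as was Eed at 187 FPKM. Suz12, at 28.4 FPKM, was the second lowest of 13, and Phf19, at 0.118 FPKM, was 2.84-fold below the lowest other library. With 1 library of the line in 2i/L there is no replicate check, and 2i-O48-TKO in 2i/L had the highest Ezh2 of all, 42.9 FPKM.

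**Figure D4:**
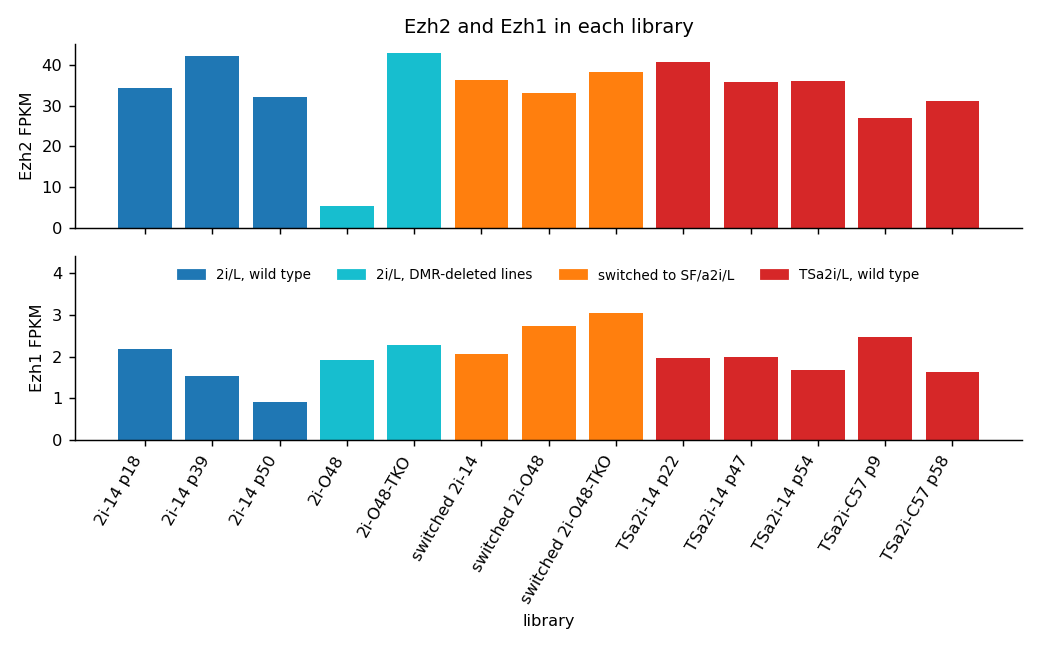
Ezh2 (top) and Ezh1 (bottom) in FPKM as 1 bar per library, coloured by medium and genotype. Ezh2 is at 5.31 FPKM in 2i-O48 and at 26.9 to 42.9 FPKM in the other 12, and Ezh1 is at 0.92 to 3.03 FPKM throughout.

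The third comparison set late passages (over p30) against early ones, a division taken from the study. In TSa2i/L, Eed was lower and Jarid2 higher in all 3 late libraries, and 0 of 9 genes passed, as did 0% of 10502 genes (limma, smallest adjusted p = 0.443, 928 genes at an unadjusted p under 0.05). Groups did not overlap for 28.2% of all tested genes.

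Eed was at 240 FPKM in TSa2i-14 p22 and 266 FPKM in TSa2i-C57 p9, and at 175, 152 and 161 FPKM in TSa2i-14 p47, p54 and TSa2i-C57 p58. The log2 change was -0.63 (SE 0.16, 95% interval -1.01 to -0.26, limma adjusted p = 0.53). Jarid2, the accessory subunit of the other PRC2 subtype, was at 10.6 and 7.26 FPKM in the early libraries and at 14.5, 15.1 and 18.2 FPKM in the late ones (0.78, SE 0.24, 95% interval 0.23 to 1.34, adjusted p = 0.53). Ring1, below the filter, was at 0.14 and 0.2 FPKM early and 0.223 to 0.545 FPKM late, a matter of a few fragments.

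The 2i-14 line, which this test did not use, had Eed at 229 FPKM at p18 and at 151 and 124 FPKM at p39 and p50. Its Jarid2 was at 11.9 FPKM and then at 18.8 and 15.3 FPKM. In a fit over all 8 wild-type libraries with medium as a covariate, added after seeing the data, the log2 change was -0.67 (SE 0.13) for Eed and 0.67 (SE 0.19) for Jarid2, both with a limma adjusted p of 0.438. Here 0% of 10387 genes passed the adjusted threshold, 906 had an unadjusted p under 0.05 and 4.91% had groups that did not overlap. Eed (229 to 266 FPKM in 3 early and 124 to 175 FPKM in 5 late libraries) and Jarid2 (7.26 to 11.9 and 14.5 to 18.8 FPKM) were 2 genes of that kind among the 10. Rnf2 was at 57.2 to 64.7 FPKM early and 36 to 58.1 FPKM late (-0.43, SE 0.17, adjusted p = 0.547) and overlapped only through TSa2i-C57 p58.

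The 3 libraries with more feeder RNA were all late passages. Without the 2 of them in TSa2i/L, which leaves 1 late library, the log2 change was -0.52 (SE 0.36) for Eed and 0.66 (SE 0.44) for Jarid2, in a fit added after seeing the data. The lone late library is assumed there to vary like the 2 early ones, so only the sizes are read. In the TSa2i/L comparison the tested genes other than Eed and Jarid2 overlapped between passages. Mtf2 in TSa2i/L was at 68.7 ± 12.1 FPKM (SD, n = 2) early and 73.5 ± 2.33 FPKM (SD, n = 3) late, and Ezh2 at 33.8 ± 9.74 and 34.3 ± 2.86 FPKM.

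**Figure D5:**
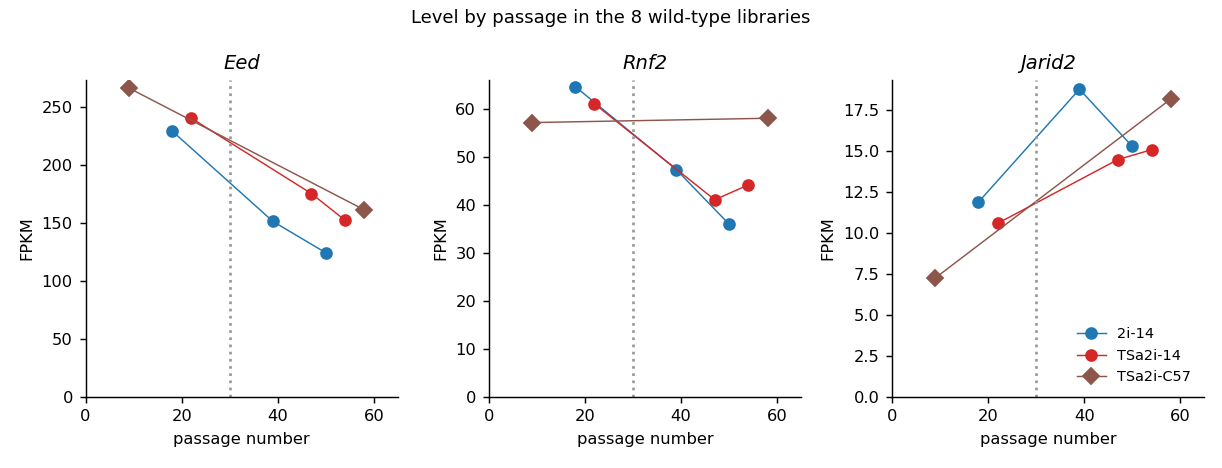
Eed, Rnf2 and Jarid2 in FPKM against passage number in the 8 wild-type libraries, joined within a line; the dotted line is p30. Early and late libraries do not overlap for Eed (229 to 266 and 124 to 175 FPKM) and Jarid2 (7.26 to 11.9 and 14.5 to 18.8 FPKM).

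Across all 13 libraries Eed and Rnf2 were the pair of the 10 genes with the highest correlation (Pearson r 0.80 and Spearman rho 0.77 on log2(FPKM + 1), n = 13). Eed was opposite in sign to Jarid2 (r = -0.60) and Mtf2 (r = -0.55), and Mtf2 to Phf19 (r = -0.55). Within the PRC2 core, Eed correlated with Ezh2 at -0.05 and with Suz12 at -0.25, and Ezh2 with Suz12 at 0.45. Without 2i-O48 these were -0.24, -0.28 and 0.08. These libraries share lines, media and passages and are not independent, so the values describe the set only.

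The gene most like each of the 10, out of 10722 searched, was named by the highest Pearson r over the 13 libraries. It was Fam168a for Ezh1 (0.88), Ppp3cb for Ezh2 (0.94), 4930548H24Rik for Eed (0.93), Rhoq for Suz12 (0.88), Kif5b for Jarid2 (0.93), Baz1a for Mtf2 (0.94), Cldn7 for Phf19 (0.91), Ptpn9 for Ring1 (0.88), Taf1b for Rnf2 (0.95) and Klf5 for Cbx7 (0.82). Ppp3cb, a calcineurin subunit, was itself lowest in 2i-O48 at 0.794 FPKM and highest in 2i-14 p39 at 5.98 FPKM. The highest of so many correlations is large by selection, and nothing else is read from these values.

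Of 45 other genes for PRC1 and PRC2 subunits, the H2A deubiquitinase PR-DUB and H3K27 demethylases, 33 passed the filter in each comparison. Between media 0 of the 33 passed the limma test, beside 7.57% of all genes, with changes from -0.97 to 0.71 and a median of -0.10 beside 0.07 for all genes. After the switch 2 of 33 (6.06%) passed, a share near the 6.89% of all genes, and both were lower: the PRC1-associated gene Scmh1 and the PRC2 subunit gene E130012A19Rik (also named Epop). Scmh1 was at 6.42, 3.18 and 5.3 FPKM in 2i-14 p50, 2i-O48 and 2i-O48-TKO and at 1.73, 1.87 and 1.58 FPKM in the switched cultures (log2 change -1.09, SE 0.24). E130012A19Rik was at 10.5, 20.8 and 9.07 FPKM and then at 6.05, 9.29 and 4.15 FPKM (-0.92, SE 0.20). Both had a limma adjusted p of 0.05 after rounding, just under the threshold. Scmh1 in the 5 TSa2i/L libraries was at 9.28 to 12.3 FPKM, above all switched cultures. Between passages 0 of 33 passed, with a median change of 0.20 beside 0.09 for all genes.

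Genes that Polycomb is known to silence in ESCs, 95 Hox and other developmental regulators, were mostly below the filter: 16 were tested between media and between passages and 8 after the switch. Such genes can pass the filter through the group where they are high, which favours a difference. Values of the 3 that passed the threshold are therefore given as a description, and their tests are not read. The called share was 6.25% between media and 25% after the switch, beside 7.57% and 6.89% of all tested genes. With so few genes, picked by this filter, nothing is read from these shares. Msx2, a homeobox gene, was at 1.06, 3.02 and 2.52 FPKM in 2i-14 (p18, p39, p50), at 0.209 to 0.327 FPKM in TSa2i-14 and at 0.336 and 1.24 FPKM in TSa2i-C57. Bmp4, a signalling ligand, was at 0.302, 3.66 and 0.056 FPKM in 2i/L and at 26.8, 8.32 and 8.51 FPKM after the switch of 2i-14, 2i-O48 and its TKO derivative. Hoxb13, the terminal gene of the Hoxb cluster, was at 5.8, 5.15 and 7.62 FPKM and then at 0.536, 1.08 and 1.13 FPKM in the same order. Between passages 0 of 16 passed, beside 0% of all tested genes.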

How the data were processed

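Libraries were made from amplified full-length cDNA of small numbers of haploid cells, which can add noise for lowly expressed genes. The authors deposited FPKM values per gene, made by mapping to mm9 with TopHat and quantification with Cufflinks according to the methods. The submitters' processing notes list TopHat2 2.0.11, Bowtie2 2.2.2 and Cufflinks 2.2.1 without roles, and the TopHat version in the methods differs from theirs. The annotation and strand setting are not given in the sources used here. Each of 13 tables held 24525 rows, and the rows of a repeated symbol (268 symbols, none of the 10 genes) were summed.

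FPKM values are not counts, so log2(FPKM + 1) was fitted with limma 3.58.1 (R 4.3.3, empirical Bayes with trend) on genes with at least 1 FPKM in 3 libraries (2 for passages), with Benjamini-Hochberg adjustment over all of them and a threshold of 0.05. Intervals are 95% limma intervals. The switch comparison kept the cell line as a block, because each switched culture came from its control's line; deviations of the 2 libraries of a line correlated at 0.172 (2i-14), -0.141 (2i-O48) and 0.358 (2i-O48-TKO). Depth was estimated from the spacing of low values over 3737 genes with 1 transcript longer than 1500 bases. The depth estimate was tested on simulated data, with a largest error of 0.686%. The simulation used the same transcript lengths as the estimate and left out cDNA amplification. It therefore gives no error for the real depths or for fragment numbers based on them. The genes and the gene lists were chosen with earlier results of these data known; all 10 genes are described, other listed genes are named where called (at most 6 subunits and 4 targets per comparison, by size). Alternatives tried were another pseudocount, filters, scalings, limma without trend, libraries left out or added, feeder RNA as a covariate and other blocks. Bisulfite and ChIP data of the series were not analysed here.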

Additional observations from a re-analysis of the deposited data

Results flagged for a closer look

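After the switch, Suz12 in 2i-14 moved against both DMR-deleted lines, by -0.03 on the log2(FPKM + 1) scale (42.4 to 41.5 FPKM), while it was higher in switched 2i-O48 (28.4 and 50.6 FPKM) and 2i-O48-TKO (41.5 and 42.5 FPKM). Jarid2 in 2i-14 likewise moved by 0.06 (15.3 to 16 FPKM) and was lower in switched 2i-O48 (16.5 and 14.9 FPKM) and 2i-O48-TKO (15.6 and 10.8 FPKM). Both drew attention by sign alone, as the wild-type line went one way and the deleted lines the other. The changes in 2i-14 were near 0, and so was that of Suz12 in 2i-O48-TKO (0.03), so no contrast between genotypes is read from them. With 1 library per line and medium the difference was not tested, and it depends on the control: against 2i-14 p18 and p39 in place of p50 the Suz12 change was 0.29 and -0.74, and that of Jarid2 was 0.40 and -0.22.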

How the results depend on the processing

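Over the alternatives, Mtf2 kept its direction in the medium (-0.75 to -0.35) and switch (-0.72 to -0.49) comparisons, Eed in the switch (0.40 to 1.00) and between passages (-0.76 to -0.52), and Jarid2 between passages (0.54 to 1.03). The number of the 10 genes called between media was 1 with the deleted lines added (Mtf2, beside 12.5% of all genes) and 1 with the feeder covariate (Phf19, beside 777 genes or 7.48%, and after a filter it passed only through TSa2i/L), and after the switch it was 0 to 3 as each line was left out. All-gene counts between media were 374 with no filter, 458 with a mean of at least 5 FPKM, 468 with TSa2i-14 alone, 1250 with the deleted lines added, 229 without the 3 feeder-rich libraries (which leaves 2 against 3) and 383 to 846 with each library left out. After the switch, limma called 0 with no filter (smallest adjusted p 0.143, and 3206 before adjustment at 0.05), 369 under the mean filter, 1505 when 2i-14 p18 and p39 joined p50 as controls and 311 to 1461 with each line left out. Between passages they were 0 to 8 with each library left out. Leaving out 1 early TSa2i/L library leaves a lone library that is assumed to vary like the late group.

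Small changes that were not called turned sign. Between media, Rnf2 was -0.01 with median centring, Ezh2 was 0.06 with TSa2i-14 alone, 0.37 with the deleted lines added and 0.03 without the feeder-rich libraries, where Suz12 was 0.02. With each library left out, Ezh2 ran from -0.17 to 0.02, Suz12 from -0.51 to 0.00 and Rnf2 from -0.10 to 0.32. After the switch Cbx7 ran from -0.01 (without the line 2i-O48) to 0.23 as each line was left out. Between passages, median centring gave -0.07 for Ezh2, -0.02 for Mtf2 and -0.04 for Cbx7, quantile normalization gave -0.04 for Cbx7, and omitting the 2 feeder-rich libraries, added after seeing the data, gave 0.15 for Phf19. With each library left out there, Ezh2 ran from -0.24 to 0.34, Suz12 from -0.17 to 0.48, Mtf2 from -0.07 to 0.28 and Cbx7 from -0.09 to 0.26. The cause was not tested. The block on the cell line turned Ezh2 to -0.01 between passages, and passage number with that block turned Cbx7 to -0.03. Without the block on the line, 778 genes and 0 of the 10 passed after the switch, and the block changed no call of the 9 tested genes.

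Centring moved the median change of all genes from 0.07 to -0.05 between media and from -0.09 to 0.07 after the switch, and the share of called genes that were higher from 75.6% to 56.2% and from 32.3% to 55.1%. Depth limits Ring1 and Phf19 most.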
